A study of Mus musculus with 12 samples.

Results

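Tumour necrosis factor (TNF) family receptors for the B cell survival factor BAFF, and the Traf adaptor proteins that such receptors recruit, were read on expression arrays of mouse spleen B cells. The set held 9 genes: the receptors Tnfrsf13b, Tnfrsf13c and Tnfrsf17 and the adaptors Traf1 to Traf6. Every probe set that the array annotation assigned to one of these genes alone was taken, which gave 15 of the 45101 probe sets on the array, for 8 of the 9 genes. Traf3 was matched to no probe set and is not analysed here. No probe set of a member was shared with another gene.

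BAFF and its relative APRIL are cytokines that keep B cells alive. BAFF-R (Tnfrsf13c) is the main survival receptor of mature B cells, TACI (Tnfrsf13b) restrains B cell numbers and supports antibody class switching, and BCMA (Tnfrsf17) sustains plasma cells. Traf proteins bind the tails of these and other TNF receptors and connect them to the NF-kB and MAP kinase pathways; Traf2 and Traf3, with the cIAP ubiquitin ligases, keep the non-canonical NF-kB kinase NIK low until a receptor such as BAFF-R is engaged. Traf1 is itself a known NF-kB target gene.

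The 12 arrays were hybridised with biotin-labelled cRNA made from total RNA of spleen cells sorted for B220, a surface protein of B cells, from mice of mixed 129/Sv and C57BL/6 background. Mice called deleted here were Foxp1flox/del and mice called control were Foxp1wt/flox, so every animal carried a floxed allele of Foxp1, which encodes a forkhead transcription factor. Cells of each genotype were kept for 4 h without stimulation or with what the labels call IgM, and each of the 4 resulting groups had 3 arrays. The labels name neither a Cre driver nor the animals' age, and they do not say whether replicates came from separate animals, so a p-value here covers the spread between samples, which may be technical.

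All values below are log2 GCRMA values of single probe sets, and differences are log2 differences; 1 unit is a doubling. Levels of different probe sets cannot be compared with each other, because probes bind with different strength. A difference was called when limma's Benjamini-Hochberg adjusted p over 19187 probe sets was under 0.05. Those were the probe sets with a value above 4 on at least 3 arrays, and 12 of the 15 member probe sets, from 7 genes, were among them.

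Array quality and cell content were checked first. The third IgM-stimulated array of the deleted genotype correlated with its group mates at 0.837 and 0.884, against at least 0.948 for every other pair within a group. Its poly-A control probe sets averaged 5.84, against 6.77 to 8.96 on the other arrays. Most single differences that rest on it are given with and without it. The group means, medians, marker sums and counts of groups that do not overlap include it wherever they cover stimulated deleted cells. Of 11 B cell markers, 10 had a probe set, and all of these were above 4. The 8 probe sets of Foxp1 overlapped between genotypes with and without IgM, with differences from -0.30 to 0.32 and none called; the labels do not give the deleted stretch, so these values do not check the labels. Summed linear signal of 9 neutrophil markers was 408 to 2913 in control and 4020 to 25266 in deleted unstimulated arrays, and 285 to 1662 and 1813 to 14798 after IgM. The macrophage and monocyte sum was 246 to 593 and 781 to 3123 without IgM and 205 to 487 and 528 to 2492 with it, while Mrc1, Fcgr1, C1qa, C1qb, C1qc and Itgam stayed at or below 4 on every array. The dendritic cell sum was 1114 to 1533 and 2427 to 3625 without IgM and overlapped between genotypes with it, and the erythroid sum was 92 to 124 and 153 to 2161 without IgM and 82 to 88 and 122 to 639 with it. The T cell sum was at most 788 on any array and overlapped between genotypes in both states, with Cd4, Cd8a, Cd8b1 and Thy1 at or below 4 on every array. Of the 12 T cell markers, 6 were above 4 on at least 3 arrays. Without IgM 5 of these 6 had the higher mean in deleted cells, and with IgM 6 had. Cd3d, for example, read 6.34 in control and 7.34 in deleted cells without IgM, and 5.93 and 5.95 with it.

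With IgM, Traf5 and Tnfrsf13b fell in both genotypes, and Traf1 and Traf4 rose in both, each on 1 of its 2 probe sets. Traf6 rose on 1 of its probe sets in control cells. Of the 12 member probe sets tested, 5 from 5 genes were called in control cells, 3 higher and 2 lower. Over all probe sets 18.2% were called in that comparison, 8.24% higher and 9.91% lower. In deleted cells 4 of 12 were called, 2 higher and 2 lower, against 17% of all probe sets, 9.95% higher and 7.04% lower. The median member difference was 0.57 in control and 0.21 in deleted cells, against -0.01 and 0.02 over all probe sets, with the third stimulated deleted array included. No member probe set was called between genotypes, in unstimulated or in stimulated cells. In bulk samples, fewer cells of a type and less RNA per cell cannot be told apart. The summed signal of the B cell markers was itself lower with IgM, at 60492 to 65152 against 113669 to 118342 in control cells and 66954 to 77803 against 110470 to 113399 in deleted cells. The sum of 11 marginal zone B cell markers was 20008 to 23940 without and 12358 to 16526 with IgM in control cells, and 19594 to 21905 and 11516 to 17678 in deleted cells. That sum is carried by bright genes such as Plac8 and Mzb1, and the mean of 3 of its 10 measured genes was higher with IgM in control cells (S1pr3, 7.54 to 11.02; Myof, 4.72 to 7.21; Cr2, 8.87 to 9.99) and of 5 in deleted cells. The sum of 10 markers of immature B cells was 12383 to 13487 and 7106 to 8317 in control cells, and 9775 to 12152 and 6415 to 9215 in deleted cells. Cd24a is its brightest gene (mean 13.37 in unstimulated control and 12.50 in unstimulated deleted cells), whereas the means of 6 of its 8 measured genes were higher in unstimulated deleted cells, among them Dntt (2.35 and 5.73), Rag1 (5.98 and 7.69) and Sox4 (10.18 and 11.39). The part of these sums in the results was not tested.

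**Figure D1:**
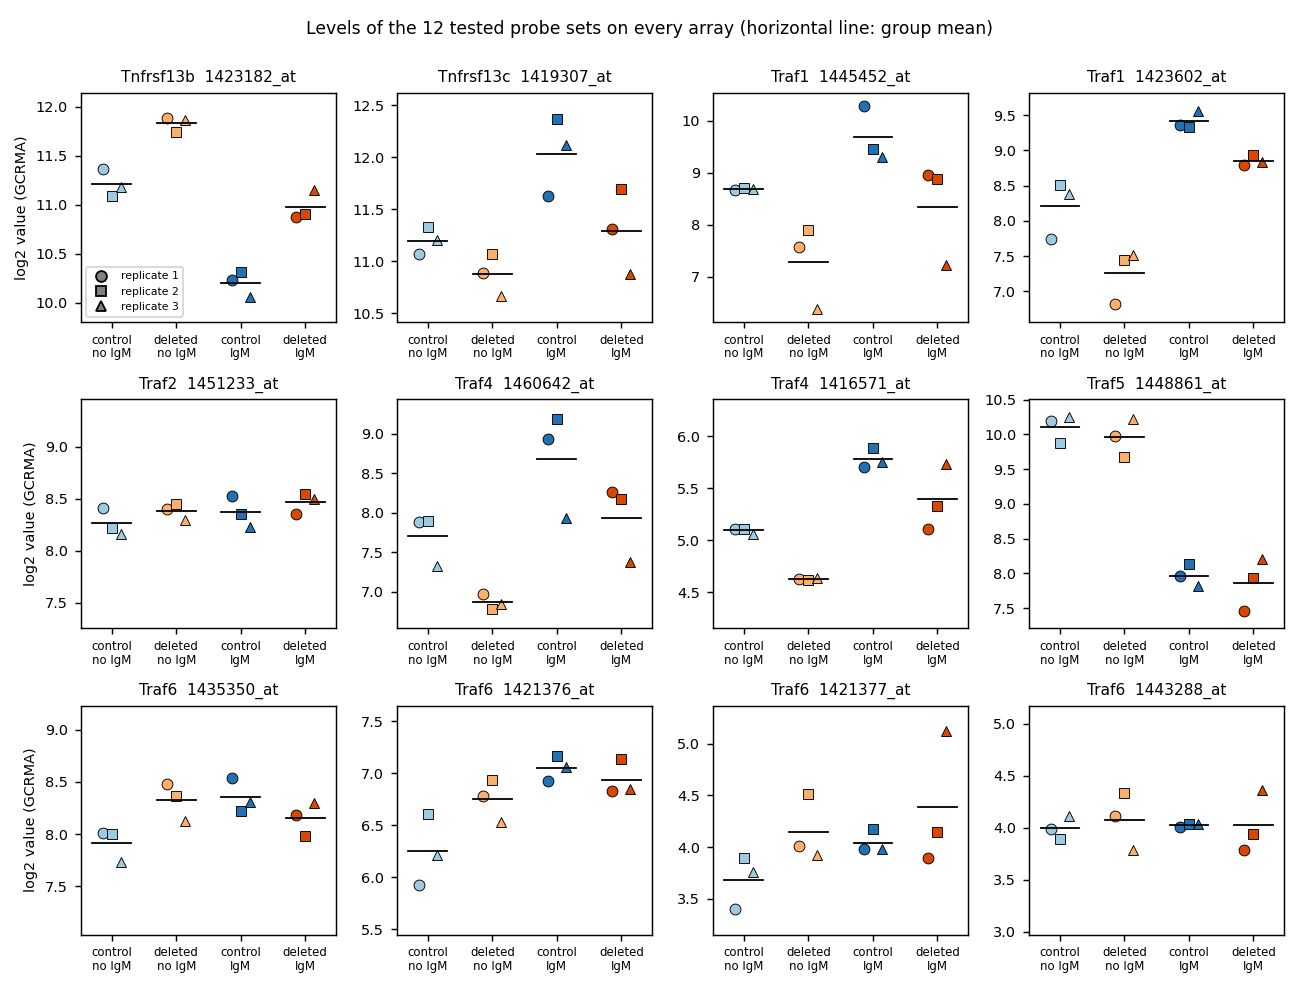
Levels of the 12 tested member probe sets on every array, as log2 GCRMA values on the y axis and the 4 groups on the x axis; symbols mark the replicate number and lines the group means. Traf5 lies at 9.67 or above on all 6 arrays without IgM and at 8.21 or below on all 6 arrays with it, and Tnfrsf13b is higher in deleted than in control cells in both states.

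Tnfrsf13b, which encodes the BAFF and APRIL receptor TACI, lies on chromosome 11 (GRCm38.p6, chr11:61126283-61153170) and was read by probe set 1423182_at. Unstimulated control cells read 11.36, 11.08 and 11.18 (11.21 ± 0.14, SD, n = 3), and unstimulated deleted cells 11.89, 11.74 and 11.86 (11.83 ± 0.08, n = 3). With IgM, control cells read 10.23, 10.31 and 10.06 (10.20 ± 0.13, n = 3), and deleted cells 10.88, 10.91 and 11.16 (10.98 ± 0.15, n = 3). All 3 deleted arrays were above all 3 control arrays in each state, and every stimulated array was below every unstimulated array of its genotype. The order of the means ran from deleted unstimulated through control unstimulated and deleted stimulated to control stimulated, and only the middle neighbours overlapped.

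TACI transcript fell with IgM by 1.01 in control cells (SE 0.18, limma adjusted p = 0.0034) and by 0.85 in deleted cells (SE 0.18, adjusted p = 0.0089), or by 0.94 without the third stimulated deleted array (adjusted p = 0.00233). Between genotypes it was 0.62 higher in deleted cells without IgM (SE 0.18, 95% interval 0.22 to 1.02, adjusted p = 0.146) and 0.78 higher with IgM (SE 0.18, interval 0.38 to 1.18, adjusted p = 0.0743), and neither was called. When the replicate number entered the fit as a block, the stimulated difference was called (adjusted p = 0.029) and the unstimulated one was not (adjusted p = 0.0616). Without the third stimulated deleted array, which lowers the spread that all groups share, the unstimulated difference was called (adjusted p = 0.0333) and the stimulated one, at 0.69, was not (adjusted p = 0.0647).

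Tnfrsf13c, which encodes BAFF-R, lies on chromosome 15 (chr15:82221742-82224380, minus strand) and was read by 1419307_at. Without IgM its values were 11.07, 11.33 and 11.20 in control cells (11.20 ± 0.13, n = 3) and 10.89, 11.07 and 10.67 in deleted cells (10.87 ± 0.20, n = 3). With IgM they were 11.62, 12.36 and 12.11 in control cells (12.03 ± 0.38, n = 3) and 11.31, 11.69 and 10.88 in deleted cells (11.29 ± 0.41, n = 3). Stimulated control arrays were all above unstimulated control arrays, whereas the stimulated deleted arrays, among which the third was lowest, overlapped the unstimulated ones. By the means, control stimulated stood first, then deleted stimulated, control unstimulated and deleted unstimulated, and only the last neighbours did not overlap.

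The BAFF-R difference with IgM in control cells was 0.83 (SE 0.26) and missed the threshold narrowly (limma adjusted p = 0.05002). It was called with the replicate block (adjusted p = 0.0106) and without control stimulated replicate 1 (0.0367), deleted stimulated replicate 2 (0.0433) or deleted stimulated replicate 3 (0.0156). In deleted cells the difference was 0.42 (adjusted p = 0.313), or 0.63 without the third array (adjusted p = 0.0976). Deleted cells were 0.32 lower than control cells without IgM (95% interval -0.90 to 0.26, adjusted p = 0.985). With IgM they were 0.74 lower (interval -1.32 to -0.16, adjusted p = 0.282), or 0.53 lower without the third array (adjusted p = 0.463).

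Tnfrsf17, which encodes BCMA (chromosome 16, chr16:11313232-11320074), was read by 1420782_at and stayed near the floor of 2.23 that the arrays share. All 6 control arrays read 2.24. Deleted arrays read 2.92, 2.24 and 3.03 without IgM and 2.74, 2.24 and 2.23 with it. No array reached the filter level of 4, so no test was made, and values this close to the floor have no order. Over 10 plasma cell markers the summed linear signal was 20687 to 25079 in control and 18308 to 22402 in deleted unstimulated cells. These ranges overlapped, and the mean of all 10 genes was lower in deleted cells. The brightest of them were Jchain, Mzb1 and Irf4 (means 12.89, 12.41 and 12.23 in unstimulated control cells), and what share of the sum came from plasma cells was not tested.

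Some of the receptor and adaptor transcripts moved with IgM. The stretch just before the gene start of each member was therefore searched for words that resemble binding sites of factors that work in stimulated B cells. The words were searched on both strands of RefSeq promoter windows of GRCm38.p6. They were GGGNNTTTC and GGGNNTTCC (2 forms of the NF-kB site, which can overlap each other and the NFAT core), TGTTTAC (forkhead), TGANTCA (AP-1), GCGNGGGCG (Egr) and TGGAAA (the core of the NFAT site). Over 32851 windows of 250 bases they occurred in 3.7%, 5.0%, 3.2%, 6.7%, 4.7% and 18.6% respectively. The bases upstream of the annotated gene are shown for the adaptor Traf1, the receptor Tnfrsf13c and the adaptor Traf5, the first 2 of which hold a match and the last none. They run 5′ to 3′ on the gene's strand, with the match in capitals.
Traf1, chr2:34961813-34962022, minus strand: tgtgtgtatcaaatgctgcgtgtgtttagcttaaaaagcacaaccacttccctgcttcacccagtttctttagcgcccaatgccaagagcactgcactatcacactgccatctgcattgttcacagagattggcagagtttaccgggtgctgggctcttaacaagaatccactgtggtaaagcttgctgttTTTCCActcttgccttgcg
Tnfrsf13c, chr15:82224381-82224630, minus strand: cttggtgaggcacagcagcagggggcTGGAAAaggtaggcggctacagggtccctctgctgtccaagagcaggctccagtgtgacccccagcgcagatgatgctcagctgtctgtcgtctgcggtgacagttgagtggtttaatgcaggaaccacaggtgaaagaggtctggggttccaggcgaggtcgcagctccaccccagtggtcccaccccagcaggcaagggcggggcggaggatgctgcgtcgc
Traf5, chr1:192092600-192092849, minus strand: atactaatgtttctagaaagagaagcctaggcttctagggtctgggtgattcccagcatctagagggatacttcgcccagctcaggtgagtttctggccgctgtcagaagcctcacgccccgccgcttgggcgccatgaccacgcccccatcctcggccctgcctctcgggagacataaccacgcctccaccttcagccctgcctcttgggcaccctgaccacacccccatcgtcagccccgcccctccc
In Traf1 the capitals are the NFAT core read on the opposite strand, 59 bases before the RefSeq start, and in Tnfrsf13c they are the same core on the gene's strand, 224 bases before the start. The Tnfrsf13b window lies inside the annotated gene span and is not shown whole; it holds GGAAAACCC, which fits the second NF-kB form on the opposite strand, 60 bases before its RefSeq start. The windows of Traf2, Traf4, Traf6 and Tnfrsf17 held no match. That of Traf3, which no probe set read, held 4 Egr matches and 1 match of each NF-kB form. Each match is a description of these letters and not a site, and a window without a match says nothing about a factor.

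Traf1, an adaptor without the RING domain of its relatives that pairs with Traf2, lies on chromosome 2 (chr2:34941750-34961812). On probe set 1423602_at unstimulated control cells read 7.74, 8.51 and 8.38 (8.21 ± 0.41, n = 3) and unstimulated deleted cells 6.82, 7.44 and 7.52 (7.26 ± 0.39, n = 3). Stimulated control cells read 9.36, 9.33 and 9.57 (9.42 ± 0.13, n = 3) and stimulated deleted cells 8.80, 8.94 and 8.83 (8.86 ± 0.08, n = 3). None of the 4 groups overlapped any other on this probe set: control stimulated was highest, then deleted stimulated, control unstimulated and deleted unstimulated.

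Traf1 rose with IgM on this probe set by 1.20 in control cells (SE 0.26, 2.3-fold, limma adjusted p = 0.00876) and by 1.60 in deleted cells (SE 0.26, adjusted p = 0.00229), or 1.61 without the third stimulated deleted array (adjusted p = 0.00333). In unstimulated cells it was 0.95 lower in the deleted genotype (SE 0.26, 95% interval -1.52 to -0.38, adjusted p = 0.114). That difference was not called, but it was with the replicate block (adjusted p = 0.0221). With IgM it was 0.56 lower (interval -1.13 to 0.01, adjusted p = 0.428), or 0.55 lower without the third array (adjusted p = 0.548).

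The other Traf1 probe set, 1445452_at, had the higher mean of the pair, a narrower spread than 1423602_at in unstimulated control cells and a wider one in the other groups. It read 8.67, 8.72 and 8.69 in unstimulated control cells (8.69 ± 0.02, n = 3) and 7.58, 7.90 and 6.38 in unstimulated deleted cells (7.29 ± 0.80, n = 3). With IgM it read 10.28, 9.46 and 9.31 in control cells (9.69 ± 0.52, n = 3) and 8.95, 8.88 and 7.22 in deleted cells (8.35 ± 0.98, n = 3). Replicate 3 was the lowest deleted array in both states and every deleted array lay below every control array of the same state. The differences with IgM were 0.99 in control cells (limma adjusted p = 0.218) and 1.07 in deleted cells (adjusted p = 0.180), neither called. The second was called with the replicate block (adjusted p = 0.0432) and, at 1.63, without the third stimulated deleted array (adjusted p = 0.0227). Deleted minus control was -1.41 without IgM (SE 0.50, adjusted p = 0.292) and -1.33 with it (adjusted p = 0.323), or -0.77 without the third array (adjusted p = 0.614). Both Traf1 probe sets thus had the same signs in all 4 comparisons, with 1 of them past the threshold for IgM.

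Traf2, the adaptor that brings cIAP proteins to the receptors (chromosome 2, chr2:25517982-25546940), was read by 1451233_at and differed little between groups. It read 8.41, 8.22 and 8.17 in unstimulated control cells (8.27 ± 0.13, n = 3) and 8.41, 8.45 and 8.30 in unstimulated deleted cells (8.38 ± 0.07, n = 3). With IgM it read 8.53, 8.36 and 8.23 in control cells (8.37 ± 0.15, n = 3) and 8.35, 8.55 and 8.49 in deleted cells (8.47 ± 0.10, n = 3). All neighbouring groups overlapped. The IgM difference was 0.10 in control cells (95% interval -0.28 to 0.49, limma adjusted p = 0.774) and 0.08 in deleted cells (interval -0.31 to 0.47, adjusted p = 0.792), or 0.07 without the third array. The genotype difference was 0.12 without IgM (interval -0.27 to 0.51, adjusted p = 1) and 0.09 with it (interval -0.30 to 0.48, adjusted p = 0.833), or 0.08 without the third array. The 4 intervals span -0.31 to 0.51.

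Traf4, a family member best known from epithelial and neural development, lies on chromosome 11 (chr11:78158423-78165579) and had 2 probe sets. On 1416571_at control cells read 5.11, 5.11 and 5.06 without IgM (5.10 ± 0.03, n = 3) and 5.70, 5.89 and 5.75 with it (5.78 ± 0.10, n = 3). Deleted cells read 4.63, 4.62 and 4.64 without IgM (4.63 ± 0.01, n = 3) and 5.11, 5.33 and 5.73 with it (5.39 ± 0.32, n = 3). Stimulated arrays were above unstimulated arrays of the same genotype without exception, and unstimulated deleted arrays were below unstimulated control arrays.

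On that probe set Traf4 rose with IgM by 0.69 in control cells (SE 0.19, limma adjusted p = 0.0316) and by 0.76 in deleted cells (SE 0.19, adjusted p = 0.0213), or 0.59 without the third stimulated deleted array (adjusted p = 0.0137). The call in control cells was lost without any 1 of the 6 control arrays (adjusted p 0.0701 to 0.107) or without unstimulated deleted replicate 2 (0.0504), and that in deleted cells without any 1 of the 3 unstimulated deleted arrays (0.0571 to 0.0685). Deleted minus control was -0.47 without IgM (SE 0.19, adjusted p = 0.431) and -0.39 with it (adjusted p = 0.469), or -0.56 without the third array (adjusted p = 0.0978).

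The brighter Traf4 probe set, 1460642_at, read 7.88, 7.89 and 7.32 in unstimulated control cells (7.70 ± 0.33, n = 3) and 6.97, 6.78 and 6.84 in unstimulated deleted cells (6.87 ± 0.10, n = 3). With IgM it read 8.93, 9.19 and 7.93 in control cells (8.68 ± 0.67, n = 3) and 8.27, 8.17 and 7.38 in deleted cells (7.94 ± 0.49, n = 3). Replicate 3 was the lowest array in 3 of the 4 groups. The IgM difference was 0.98 in control cells (SE 0.35, limma adjusted p = 0.0783) and 1.07 in deleted cells (adjusted p = 0.0600). Both were called with the replicate block (adjusted p = 0.00938 and 0.00648). Without the third stimulated deleted array both were also called, at 0.98 (adjusted p = 0.0353) and 1.35 (adjusted p = 0.0199), as they were without control stimulated replicate 3 (0.0226 and 0.0298). Deleted minus control was -0.83 without IgM (adjusted p = 0.436) and -0.75 with it (adjusted p = 0.436), or -0.46 without the third array (adjusted p = 0.776).

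Traf5, a close relative of Traf2 that serves CD40 and other TNF receptors, showed the largest difference with IgM among the 12 tested member probe sets. It lies on chromosome 1 (chr1:191997203-192092599). Probe set 1448861_at read 10.19, 9.88 and 10.25 in unstimulated control cells (10.11 ± 0.20, n = 3) and 7.96, 8.13 and 7.82 in stimulated ones (7.97 ± 0.15, n = 3). Deleted cells read 9.97, 9.67 and 10.22 without IgM (9.95 ± 0.27, n = 3) and 7.46, 7.93 and 8.21 with it (7.87 ± 0.38, n = 3). The stimulated and unstimulated arrays lay far apart, and the genotypes overlapped in both states.

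Traf5 fell by 2.14 in control cells (SE 0.24, 95% interval -2.68 to -1.60, limma adjusted p = 0.000306), a 4.4-fold lower level. In deleted cells it fell by 2.09 (SE 0.24, adjusted p = 0.000437), or by 2.26 without the third array (adjusted p = 0.000274). Both calls were made in all 25 alternatives run on this probe set. Deleted minus control was -0.15 without IgM (interval -0.69 to 0.38, adjusted p = 1) and -0.10 with it (interval -0.64 to 0.43, adjusted p = 0.873), or -0.27 without the third array (adjusted p = 0.815). The other Traf5 probe set, 1447682_x_at, read between 2.30 and 3.30 on the 12 arrays, below the filter, and was not tested.

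**Figure D2:**
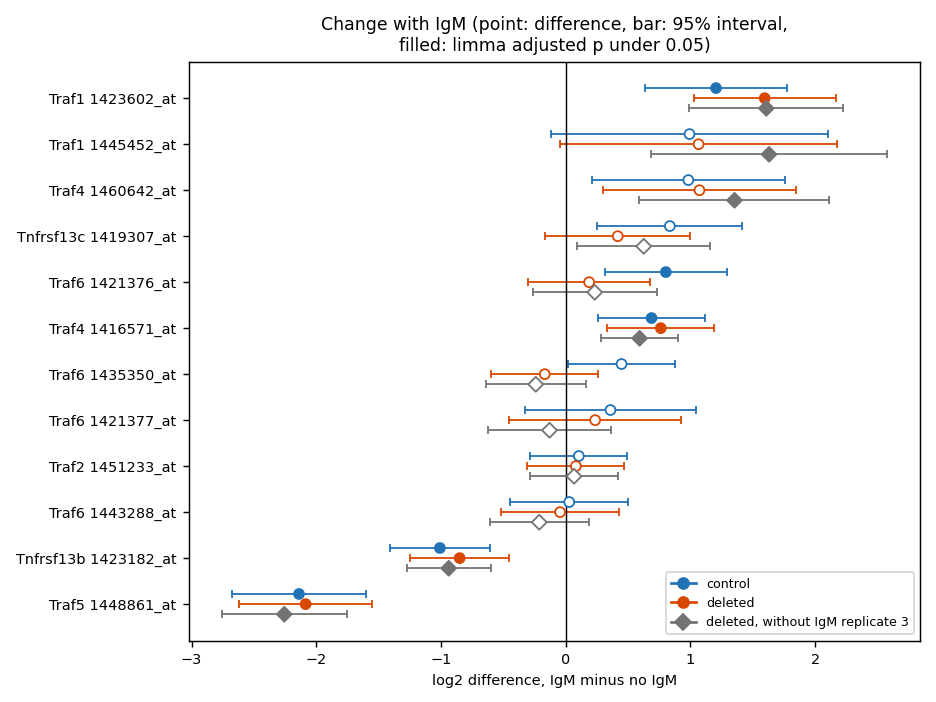
Log2 difference with IgM (x axis, stimulated minus unstimulated) of each tested member probe set, in control cells, in deleted cells and in deleted cells without the third stimulated array; bars are 95% intervals and filled points have a limma adjusted p under 0.05. Traf5 and Tnfrsf13b lie below 0 and the probe sets of Traf1 and Traf4 above 0 in all 3 rows.

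Traf6, a ubiquitin ligase that serves CD40 and the Toll-like and interleukin-1 receptors, lies on chromosome 2 (chr2:101678420-101701668) and had 5 probe sets. On 1435350_at, the brightest, control cells read 8.01, 7.999 and 7.73 without IgM (7.91 ± 0.16, n = 3) and 8.54, 8.22 and 8.31 with it (8.36 ± 0.16, n = 3). Deleted cells read 8.48, 8.37 and 8.12 without IgM (8.32 ± 0.18, n = 3) and 8.18, 7.98 and 8.30 with it (8.16 ± 0.16, n = 3). Unstimulated control cells were the low group, with all 3 arrays below those of unstimulated deleted and stimulated control cells.

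On this probe set the IgM difference was 0.45 in control cells (SE 0.20, limma adjusted p = 0.148) and -0.17 in deleted cells (adjusted p = 0.594), or -0.24 without the third array (adjusted p = 0.408). Deleted minus control was 0.41 without IgM (adjusted p = 0.551) and -0.20 with it (adjusted p = 0.657), or -0.27 without the third array (adjusted p = 0.719). Deleted cells read higher in 3 of 3 same-numbered pairs without IgM and lower in 3 of 3 with it. The test of that change in difference gave -0.62 (SE 0.28, unadjusted p = 0.0477, limma adjusted p = 0.968), or -0.69 without the third array (adjusted p = 0.831), and was not called.

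Probe set 1421376_at of Traf6 read 5.93, 6.61 and 6.21 in unstimulated control cells (6.25 ± 0.34, n = 3) and 6.93, 7.17 and 7.05 in stimulated ones (7.05 ± 0.12, n = 3). Deleted cells read 6.78, 6.93 and 6.53 without IgM (6.75 ± 0.20, n = 3) and 6.83, 7.13 and 6.85 with it (6.94 ± 0.17, n = 3). Stimulated control arrays all lay above unstimulated ones, while the deleted groups overlapped. Traf6 rose with IgM on this probe set in control cells, by 0.80 (SE 0.22, limma adjusted p = 0.0283). The call was lost without unstimulated control replicate 1 or 3 or without any 1 stimulated control array (adjusted p 0.0582 to 0.116). In deleted cells the difference was 0.19 (adjusted p = 0.602), or 0.23 without the third array (adjusted p = 0.535). The change in difference between genotypes was -0.62 (adjusted p = 0.968), so the IgM responses of the genotypes were not shown to differ.

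The 3 remaining Traf6 probe sets were dim. The values of 1421377_at ran from 3.41 to 5.12 and passed 4 on 5 arrays, and those of 1443288_at ran from 3.78 to 4.36 and passed 4 on 7 arrays. Neither was called in any comparison, and the highest value of each came from the third stimulated deleted array. Probe set 1446940_at read the floor of 2.23 on all 12 arrays and was not tested.

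Between genotypes the unstimulated comparison had 0 of 12 member probe sets called by limma, against 2.03% of all probe sets (1.47% higher and 0.552% lower in deleted cells). At an unadjusted p under 0.05 there were 6, against 9.74% of all probe sets: Tnfrsf13b and Traf6 1421376_at with the higher level in deleted cells, and both probe sets of Traf1 and of Traf4 with the lower. The 3 deleted arrays did not overlap the 3 control arrays on 8 of the 12, against 17.2% of all. With the replicate block 1 of 12 was called (5.36% of all) and without the third stimulated deleted array 1 of 12 (3.96% of all). With both changes 8 of 12 were called (16.7% of all).

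In stimulated cells 0 of 12 were called between genotypes, against 1.19% of all probe sets (1.06% higher and 0.13% lower). At an unadjusted p under 0.05 there were 3, against 12% of all probe sets, namely Tnfrsf13b, Tnfrsf13c and Traf1 1445452_at. The genotypes did not overlap on 3 of 12, against 16.1% of all. With the replicate block 1 was called (4.8% of all), without the third array 0 (1.34% of all), and with both changes 2 (8.08% of all), Tnfrsf13b and Traf4 1416571_at. The neutrophil, macrophage and erythroid sums given above were higher in deleted than in control arrays in both states without overlap. All 9 measured neutrophil genes had the higher mean in deleted cells in both states. Of 6 measured macrophage and monocyte genes 5 did in each state. The other was Adgre1 without IgM (6.01 in control and 4.57 in deleted cells) and Cd68 with it (6.29 and 6.04). In the erythroid list 2 of 9 genes were measured, and Hba-a1, Klf1 and Epor were at or below 4 on every array. The B cell marker sum was lower in deleted cells without IgM and higher with it, without overlap. In each state 5 of its 10 measured genes had the higher mean in deleted cells and 5 the lower. Without IgM the dendritic and the platelet and stromal sums were higher and the immature B cell sum lower, all without overlap. Bst2 was the brightest dendritic gene there (9.56 in control and 11.08 in deleted cells). Of 7 measured dendritic genes 5 had the higher mean in deleted cells and 2 the lower, Zbtb46 (6.41 and 4.80) and Klk1 (6.62 and 6.39). In the platelet and stromal list 2 of 8 genes were measured. Of the immature B cell genes, 6 of 8 had the higher mean in deleted cells without IgM and 7 of 8 with it. The sum of the natural killer cell markers overlapped between genotypes in both states. Of its 8 measured genes, 8 had the higher mean in deleted cells without IgM and 6 with it. The part of these marker levels in the genotype differences was not tested.

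**Figure D3:**
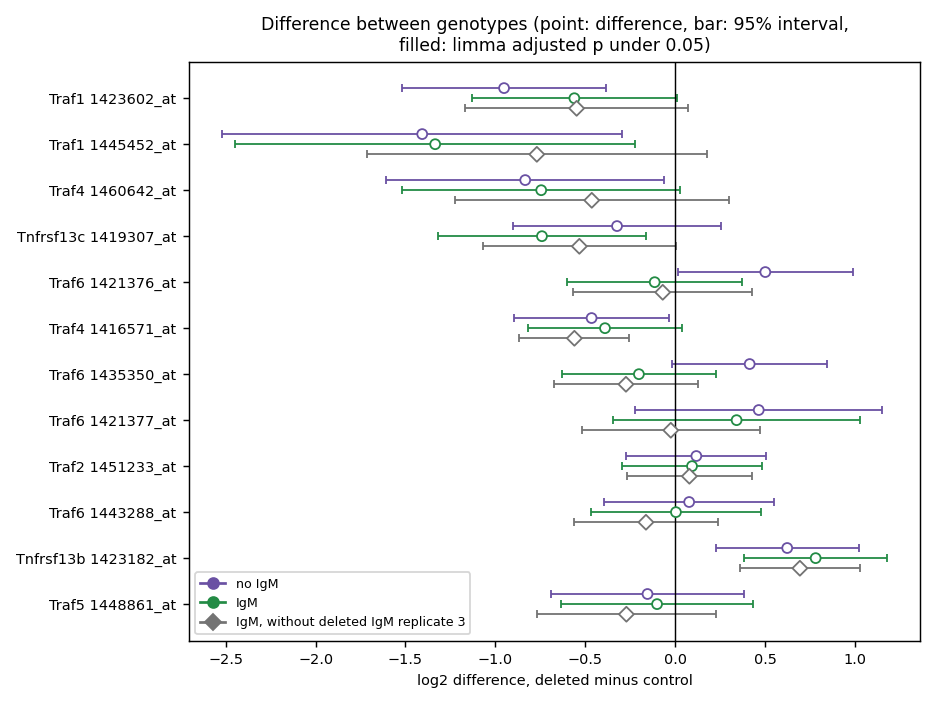
Log2 difference between genotypes (x axis, deleted minus control) of each tested member probe set, without IgM, with IgM and with IgM without the third deleted array; bars are 95% intervals, and no point is filled because none had a limma adjusted p under 0.05. Tnfrsf13b lies above 0 and the probe sets of Traf1 and Traf4 below 0 in all 3 rows.

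For the IgM comparisons, the stimulated and unstimulated control arrays did not overlap on 10 of 12 member probe sets, against 43.1% of all, and the deleted arrays on 5 of 12, against 32.5% of all. In control cells 7 of 12 were called with the replicate block (33.4% of all), 7 without the third stimulated deleted array (30.6% of all) and 10 with both changes (57.1% of all). In deleted cells the counts were 6 (34.4% of all), 6 (21.1% of all) and 7 (45.9% of all). The change of the genotype difference with IgM was called for 0 of 12, against 0.099% of all probe sets (0% higher and 0.099% lower). At an unadjusted p under 0.05 there was 1 of 12, Traf6 1435350_at, against 3.63% of all.

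The neighbours of these genes in the pathway were taken from 6 lists, each gene by its brightest probe set. The shares and medians set beside them are over all probe sets, which is a different unit. With 1 probe set per gene, 20.7% of genes were called with IgM in control and 19% in deleted cells. Between genotypes 2.85% were called without and 1.72% with IgM. The median IgM difference over all genes was -0.05 in control and -0.08 in deleted cells. Of the ligands and partners Tnfsf13b (BAFF), Tnfsf13 (APRIL), Tnfsf12 and Camlg, 0 of 4 passed the filter; Tnfsf13b read 2.23 to 2.33 on all arrays, at the floor, and for the other 3 no probe set was matched to the gene alone. In the non-canonical NF-kB list 8 of 9 genes passed, and 0 were called by limma in any comparison. The share called over all probe sets was 18.2% and 17% with IgM in control and deleted cells. It was 2.03% and 1.19% between genotypes without and with IgM, and 0.099% for the change in that difference. The median difference of the list with IgM was -0.35 in control and 0.00 in deleted cells, against -0.01 and 0.02 over all probe sets. That deleted median includes the third stimulated array. Without it the deleted differences were -0.79 for Birc2, -0.76 for Birc3, -0.64 for Map3k14, -0.45 for Xiap and -0.29 for Otud7b. They were 0.07 for Nfkb2, 0.09 for Usp7 and 0.41 for Relb, and 0 were called. Without the third stimulated deleted array, 2 of the 8 were called with IgM in control cells, where 30.6% of all probe sets were, both lower: Xiap (-0.56, adjusted p = 0.0163) and the cIAP gene Birc2 (-0.76, adjusted p = 0.0282). With the replicate block, which called 33.4% of all, 2 were called lower as well, Xiap (adjusted p = 0.0344) and the other cIAP gene Birc3 (adjusted p = 0.031).

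Of 16 canonical NF-kB genes, 14 passed and 2 rose with IgM in each genotype, where 18.2% (control) and 17% (deleted) of all probe sets were called. Nfkbie, an inhibitor of NF-kB, rose by 1.09 in control cells (SE 0.22, adjusted p = 0.00666) and by 1.65 in deleted cells (adjusted p = 0.000847), or 1.47 without the third array (adjusted p = 0.000676). Rel, the c-Rel subunit, rose by 1.28 (SE 0.30, adjusted p = 0.0146) and by 2.24 (adjusted p = 0.000943), or 2.06 without the third array (adjusted p = 0.00179). In unstimulated cells Rel was 1.26 lower in deleted than in control cells, not called (adjusted p = 0.0698), but called with the replicate block (adjusted p = 0.00446) and without the third stimulated deleted array (adjusted p = 0.0366). The call of Rel in control cells was lost without unstimulated control replicate 1 or stimulated control replicate 2 or 3 (adjusted p up to 0.0626). The median IgM difference of the list was 0.13 and 0.25, the latter with the third array included. Without the third array the counts were 3 higher in control cells (30.6% of all probe sets called) and 3 higher and 1 lower in deleted cells (21.1% of all); those added were Nfkbib in both (0.89 and 0.90, adjusted p = 0.00211 and 0.00541) and Ikbkg. With the replicate block the counts were 4 and 5 higher (33.4% and 34.4% of all), and those added were Malt1 (0.82 and 1.05, adjusted p = 0.0114 and 0.00369) and Nfkbiz (0.87 and 1.25, adjusted p = 0.0045 and 0.000752) in both genotypes and Tab3 in deleted cells (0.69, adjusted p = 0.0166). Without the third array, with no block, the differences of Malt1, Nfkbiz and Tab3 in deleted cells were 0.58, 0.57 and 0.35, not called.

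Of 25 genes whose products bind or regulate Traf proteins, 22 passed, with 1 higher and 4 lower with IgM in control cells (18.2% of all probe sets called) and 2 higher and 3 lower in deleted cells (17% of all). Tifa, an adaptor that engages Traf6, fell by 2.60 in control cells (SE 0.32, adjusted p = 0.000421) and by 1.28 in deleted cells (SE 0.32, adjusted p = 0.0182), or by 1.12 without the third array (adjusted p = 0.0397). Traf3ip3 fell by 2.35 and 1.63 (adjusted p = 0.00292 and 0.0191), the latter by 1.98 without the third array (adjusted p = 0.00657). Trafd1, a brake on Toll-like receptor signalling, fell by 1.40 and 1.02 (adjusted p = 0.00229 and 0.0125), or in deleted cells without the third array by 1.075 (adjusted p = 0.0109). Tnip2, a partner of the ubiquitin-editing enzyme A20, rose by 1.42 and 1.66 (adjusted p = 0.00657 and 0.00331), the latter by 1.45 without the third array (adjusted p = 0.00548). Tnfaip3, which encodes A20, rose in deleted cells by 1.26 (adjusted p = 0.0166), or by 0.91 without the third array (adjusted p = 0.0177). In control cells Tnfaip3 differed by 0.96 (adjusted p = 0.05003), which was called with the replicate block (adjusted p = 0.00835) and without the third stimulated deleted array (adjusted p = 0.0057). Traf3ip2, named after its value was seen, fell by 0.90 in control cells (adjusted p = 0.0237). In deleted cells it differed by -0.52 (adjusted p = 0.171), called with the replicate block (adjusted p = 0.0261), and by -0.61 without the third array (adjusted p = 0.107). With 1 array left out, calls were lost for Traf3ip2 without unstimulated control replicate 2 or 3 or stimulated control replicate 1 or 3 (adjusted p up to 0.0957). In deleted cells they were lost for Tnfaip3 without unstimulated replicate 1 or 3 (up to 0.0582), for Tifa without unstimulated replicate 1 or 2 (up to 0.0802) and for Traf3ip3 without unstimulated replicate 3 or stimulated replicate 1 or 2 (up to 0.0749). The median IgM difference of the list was -0.21 and -0.15, the latter with the third array included. Without the third array 2 higher and 5 lower were called in control cells (30.6% of all) and 2 higher and 4 lower in deleted cells (21.1% of all). Cyld was added in both (-0.71 and -0.70, adjusted p = 0.00945 and 0.0229). With the replicate block 3 higher and 5 lower were called in control cells (33.4% of all) and 2 higher and 5 lower in deleted cells (34.4% of all). Besides Tnfaip3 and Traf3ip2, it added Tnip1 (-0.77, adjusted p = 0.00805) and Tank (0.48, adjusted p = 0.0437) in control cells and Tradd in deleted cells (-0.88, adjusted p = 0.0384; -0.34 without the third array and no block, adjusted p = 0.472).

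Of 17 other receptors that bind Traf proteins, 7 passed. Of these, 0 were called by limma in any comparison, where 0.099% to 18.2% of all probe sets were called. The smallest adjusted p with IgM in control cells was that of Tnfrsf12a (1.17, adjusted p = 0.0925), which was called without the third stimulated deleted array (adjusted p = 0.000989) and with the replicate block (adjusted p = 0.0457). In deleted cells Tnfrsf12a differed by 0.19 (adjusted p = 0.798), or by 0.83 without the third array, when it was called (adjusted p = 0.0139). Tnfrsf18 differed by -1.002 in control cells and was called there without the third stimulated deleted array (adjusted p = 0.0278). In deleted cells it differed by -1.74, called with the block (adjusted p = 0.0151), and by -0.85 without the third array (adjusted p = 0.0987). Tnfrsf1b differed by 0.69 in deleted cells, called with the block (adjusted p = 0.023), and by 0.75 without the third array (adjusted p = 0.0952). Cd40 read 10.42 ± 0.22 in unstimulated control cells and 9.93 ± 0.23 in unstimulated deleted cells (n = 3 each), a difference of -0.48 (adjusted p = 0.876).

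Of 10 survival effectors, 7 passed, with 0 higher and 3 lower with IgM in control cells (18.2% of all probe sets called) and 2 higher and 3 lower in deleted cells (17% of all). Pim2, a survival kinase, fell by 1.98 and 1.68 (adjusted p = 0.000261 and 0.00067), Bcl2 by 1.73 and 1.06 (adjusted p = 0.000455 and 0.00697), and the death promoter Bmf changed by -1.65 and -1.005 (adjusted p = 0.0013 and 0.0179). In deleted cells without the third array the differences were -1.60, -1.05 and -1.16 for Pim2, Bcl2 and Bmf, all called (adjusted p = 0.000868, 0.00727 and 0.00759). In deleted cells the survival gene Bcl2l1 rose by 1.44 (adjusted p = 0.0342), or 1.70 without the third array (adjusted p = 0.0205). The death promoter Bcl2l11 rose by 1.25 (adjusted p = 0.00231), or 1.28 without it (adjusted p = 0.00193). In control cells Bcl2l1 differed by 1.27 (adjusted p = 0.0536), which was called with the replicate block (adjusted p = 0.000557) and without the third stimulated deleted array (adjusted p = 0.0323). In deleted cells the Bmf call was lost without unstimulated deleted replicate 1 or 2 or stimulated deleted replicate 2 (adjusted p up to 0.0647). The Bcl2l1 call was lost without unstimulated control replicate 2, unstimulated deleted replicate 2 or 3, or stimulated deleted replicate 1 or 2 (adjusted p up to 0.116). Between genotypes 1 gene of the 6 lists was called, against 2.03% of all probe sets without IgM and 1.19% with it. Bcl2l11 was 0.92 lower in unstimulated deleted cells (SE 0.20, limma adjusted p = 0.0442). When each array was left out in turn that call was made in 1 of 12 fits, the one without the third stimulated deleted array (adjusted p 0.0188 to 0.177 over the 12). With the replicate block Rel, Tifa (adjusted p = 0.0229) and Bcl2l1 (adjusted p = 0.00436) were called lower there too, and Bcl2l1 was called lower in stimulated deleted cells (-0.99, adjusted p = 0.0135; -0.73 without the third array and no block, adjusted p = 0.66). The test of a change in the genotype difference with IgM called 0 genes of the 6 lists, against 0.099% of all probe sets.

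**Figure D4:**
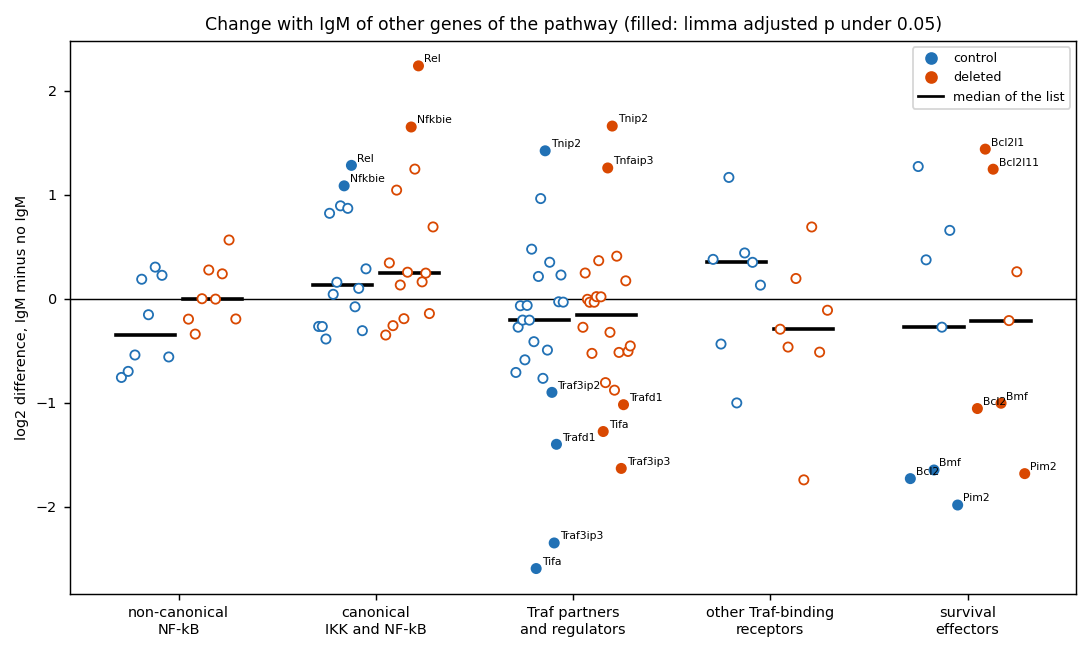
Log2 difference with IgM (y axis) of every measured gene of 5 pathway lists (x axis) in control and deleted cells; filled points have a limma adjusted p under 0.05 and lines are list medians. Rel and Nfkbie stand highest among the canonical genes in deleted cells, and Tifa and Traf3ip3 lowest among the Traf partners in control cells.

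The genes whose levels followed each member most closely over the 12 arrays were found by Pearson correlation among 9293 genes, each by its brightest probe set. These correlations are descriptions over arrays that share genotype, stimulation and replicate number. Tnfrsf13b was closest to Mta3 (0.994) and Tent5a (0.988), and Tnfrsf13c to Tmem259 (0.963) and Hgh1 (0.953). Traf1 was closest to Pcgf5 (0.943) and Ccl4 (0.942), and Traf4 to Sox12 (0.951) and Ube2g2 (0.943). Traf5 was closest to Acvr1b and Ppp3ca (0.972 each). Traf2 and Traf6, which varied least, had lower best values: Atg7 (0.863) and Fem1a (0.791) for Traf2, and Inafm2 (0.851) and Mvb12b (0.79) for Traf6. Without the third stimulated deleted array the 14 correlations ran from 0.765 to 0.994.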

How the data were processed

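Per the submitters' processing notes, the authors made the deposited log2 expression values with GCRMA, a method that models background by probe sequence before quantile normalization and summary per probe set. Version and settings are not given in the sources used here. Values ran from 2.23 to 15.79, which is how the log2 scale was recognised. Probe sets were named from the platform annotation, and 34754 symbols were updated through gene identifiers with the RefSeq table of GRCm38.p6. Of 45101 probe sets, the 64 array controls and those not above 4 on at least 3 arrays were left out.

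Differences were fitted by limma 3.58.1 (R 4.3.3; two-sided moderated tests from eBayes), with 1 mean per group over all 12 arrays and Benjamini-Hochberg adjustment over 19187 probe sets, and called at an adjusted p under 0.05. The fit was tested on simulated data. Arrays with the same replicate number deviated together (correlations 0.24 to 0.84 over 12 pairs of arrays), so blocked values, fitted with that number as a term, are given where a call of a member or of a pathway gene named in the text changes. Arrays have no read depth; precision is limited by their number. The members and gene lists were chosen with earlier results of these data known. Named pathway genes were up to 4 per list with the smallest p for IgM in control cells and for genotype in unstimulated cells. Genes named only for a call with the block or with an array left out were chosen after their values were seen. Alternatives covered filters, probe set summaries, normalization, array weights and left-out arrays. Promoter sequences came from RefSeq, GRCm38.p6, and all 9 genes matched.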

Additional observations from a re-analysis of the deposited data

Results flagged for a closer look

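The genotype difference of Traf6 changed sign with IgM on both of its brighter probe sets. On 1435350_at deleted cells read higher than control cells in all 3 same-numbered pairs without IgM and lower in all 3 pairs with it, and the change in the difference was -0.62 (limma adjusted p = 0.968). On 1421376_at the pairs moved the same way, and the change was -0.62 as well (adjusted p = 0.968). Neither was called, and the 2 probe sets read the same gene in the same RNA. On the dim Traf6 probe sets the sign did not change. Deleted minus control was 0.46 without and 0.34 with IgM on 1421377_at, and 0.08 and 0.004 on 1443288_at. Without the third stimulated deleted array the differences with IgM were -0.02 and -0.16. How often such opposite pairs occur over all probe sets was not counted.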

How the results depend on the processing

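The share of all probe sets called in the same fit stands in brackets after each count. Of 12 member probe sets, limma called 0 between genotypes in unstimulated cells (2.03%). This became 1 with no filter (0.662%), 1 with the replicate block (5.36%), 3 with array weights (6.38%) and 1 without all arrays of number 3 (2.23%). It became 8 with the block and without the third stimulated deleted array (16.7%), and 0 to 1 with single arrays left out (1.18% to 3.96%). In stimulated cells the 0 called (1.19%) became 1 with no filter (0.273%), 1 with the mean of a gene's probe sets (2.16%) and 1 with the block (4.8%). It became 2 with array weights (5.27%) and 2 with the block and without that array (8.08%). For IgM in control cells the 5 called (18.2%) became 3 of 7 genes with 1 probe set per gene (20.7%), 8 with array weights (36.8%) and 3 at a threshold of 0.01 (8.7%). It became 1 without all arrays of number 1 (4.33%) and 1 without those of number 2 (2.2%). It became 10 with the block and without that array (57.1%), and 3 to 7 with single arrays left out (10.9% to 30.6%). In deleted cells the 4 called (17%) became 2 with 1 probe set per gene (19%), 7 with array weights (32%) and 2 and 1 without the arrays of number 1 and 2 (3.64% and 1.35%). It became 7 with the block and without that array (45.9%) and 2 when only the compared groups were fitted (4.72%). With single arrays left out it was 3 to 6 (10% to 21.1%). The fit with the block and without that array was chosen after seeing the data. Traf5 was called for IgM in both genotypes under every alternative that tested it. Tnfrsf13b lost its calls for IgM without all arrays of number 1 or of number 2 and, in deleted cells, when only the compared groups were fitted. Traf1 1423602_at lost its control call without all arrays of number 1 (limma adjusted p = 0.091) or of number 2 (0.123). Its call in deleted cells was lost without those of number 2 (0.0963). Beyond the calls named in the report, the replicate block changed no other call of a member. No member's change of genotype difference with IgM was called under any alternative, and with only 2 groups that change could not be fitted.

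Signs reversed only for differences that were not called, and the cause was not tested. For the change of genotype difference with IgM, Traf1 1445452_at gave -0.0074 and -7.5e-05 without all arrays of number 2 and 3, and -0.38 to 0.64 with single arrays left out. Traf2 gave 0.048 without number 1 and -0.097 to 0.055 with single arrays left out. Traf4 1460642_at gave -0.29 to 0.37 with single arrays left out. Traf4 1416571_at gave -0.064 with array weights, -0.089 without number 3, -0.10 with the block and without the third stimulated deleted array, and -0.096 to 0.22 with single arrays left out. Traf5 gave -0.013 with equal array medians, -0.042 with array weights, -0.13 without number 3, -0.074 with the block and without that array, and -0.12 to 0.26 with single arrays left out. The stimulated genotype difference of Traf5 was 0.097 without number 1 and -0.27 to 0.10 with single arrays left out. With the mean of a gene's probe sets, Traf6 gave 0.0070 between stimulated genotypes and 0.052 for IgM in deleted cells.

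Over all probe sets, calls ran from 423 to 10956 for IgM in control cells, 259 to 8815 in deleted cells, 38 to 3197 between unstimulated and 0 to 1551 between stimulated genotypes; each lowest count came without all arrays of number 2 and each highest with the block and without that array. Values near the floor limit what Tnfrsf17, Traf5 1447682_x_at and 3 probe sets of Traf6 can show. Traf4 1416571_at, the Traf4 probe set called for IgM, was also dim, at 4.62 to 5.89. It was not tested when the filter was raised from 4 to 6.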
